A study of Homo sapiens with 2 samples.

Results

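NPM1, NOP2, DKC1 and WDR12 are 4 of the proteins that build ribosomes in the nucleolus, and they were followed here in RNA from the lung cancer line 95D, which is of human origin. The rows carrying these 4 names, out of 9253 names with a value, were taken from the deposited table of each library. There were 44 such rows, of which 21 carried a value out of 18663 rows with a value in all. The 4 names were chosen by their values, as ribosome biogenesis names above 0 in both libraries, so those values are a description and were not tested. On the lists of biogenesis genes used below, which do not hold every such gene, the lowest chosen sum was 15.8 (WDR12, without glutamine). The other measured names on these lists stood at 0 in 1 of the libraries.

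The labels give 2 samples, both of 95D cells of WT genotype grown in DMEM with serum and antibiotics. Both were seeded for 24 h in complete medium and then kept for 48 h in medium with dialysed serum, 1 without glucose (the glucose-free library) and 1 without glutamine (the glutamine-free library). There is 1 library per condition and none from cells in complete medium, so every difference below lies between 2 libraries, has no replicate check and carries no p-value. The series is titled as a pull-down of RNAs that interact with ALKBH5, an m6A demethylase, compared with input RNA, whereas neither sample's label says which of these its library is. Of the markers used to check the cell type, the epithelial keratin KRT8 stood at 200 in the glucose-free and 143 in the glutamine-free library, while KRT18, KRT19 and KRT7 stood at 75.1, 42.6 and 9.47 in the latter and were listed at 0 in the former. NAPSA, a lung lineage protease, stood at 161 and 18.9, and of the mesenchymal markers VIM stood at 0 and 75.9 and FN1 at 344 and 963. EPCAM, CDH1, CDH2, SFTPB, SFTPC and NKX2-1, a lung lineage factor, carried no value in either. The leukocyte markers (3) and the endothelial markers (2) carried no value either.

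Ribosome production starts with transcription of a long precursor RNA by RNA polymerase I. The precursor is modified, cut and folded together with ribosomal proteins by a large set of assembly factors, and cells lower or raise this costly process with nutrient supply. NPM1 (nucleophosmin) is an abundant nucleolar chaperone that binds histones and ribosomal particles. NOP2 is an RNA methyltransferase that places 5-methylcytosine on the large-subunit ribosomal RNA. DKC1 (dyskerin) is the pseudouridine synthase of the box H/ACA ribonucleoproteins and also a part of telomerase, and mutations in it cause X-linked dyskeratosis congenita. WDR12 is a WD-repeat protein that forms the PeBoW complex with PES1 and BOP1, which is needed for maturation of the large subunit.

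The deposited rows have no transcript identifiers or coordinates, so the genes are placed here by symbol in the RefSeq annotation of GRCh38.p14, the same assembly as the hg38 build in the submitters' processing notes. NPM1 lies on chromosome 5 from 171387116 to 171410900, NOP2 on chromosome 12 from 6556871 to 6568291, DKC1 on chromosome X from 154762864 to 154777689 and WDR12 on chromosome 2 from 202874261 to 202911673. RefSeq lists 8 transcripts of NPM1, 5 of NOP2, 6 of DKC1 and 2 of WDR12, and the deposited table held more rows under each name, namely 16, 7, 15 and 6. Of the RefSeq transcripts, 1 of NPM1 and 3 of DKC1 are non-coding, and 0 of NOP2 and WDR12 are. The column of names is headed as long non-coding RNA. A value below is therefore that of the listed rows, and whether they hold reads of the messenger RNA cannot be told. RefSeq names 50 pseudogenes of NPM1 and 3 of WDR12. None of these pseudogene names occurs in the table, and reads of such copies cannot be told apart from those of the parent gene.

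The stretch of 250 bases before the transcription start of each gene in RefSeq is given next, and the 4 genes differ in it. Whether the deposited rows start there cannot be told, as they have no coordinates. The sequences below are from RefSeq, on the gene's own strand, with the positions of searched motifs in capitals. For NPM1, which has 2 start sites in the RefSeq table, the site listed first is shown.
NPM1, chr5:171387599-171387848, plus strand: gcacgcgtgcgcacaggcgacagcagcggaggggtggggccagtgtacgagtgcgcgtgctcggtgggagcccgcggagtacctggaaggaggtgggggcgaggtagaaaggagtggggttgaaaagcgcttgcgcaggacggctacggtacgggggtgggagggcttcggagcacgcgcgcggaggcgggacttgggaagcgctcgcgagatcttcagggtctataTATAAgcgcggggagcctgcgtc
NOP2, chr12:6568292-6568541, minus strand: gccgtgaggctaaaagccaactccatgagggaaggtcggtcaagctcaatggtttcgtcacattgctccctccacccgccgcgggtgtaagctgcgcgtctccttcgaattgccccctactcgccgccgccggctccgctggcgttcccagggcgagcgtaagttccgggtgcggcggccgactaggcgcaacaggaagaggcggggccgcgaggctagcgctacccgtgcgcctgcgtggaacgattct
DKC1, chrX:154762614-154762863, plus strand: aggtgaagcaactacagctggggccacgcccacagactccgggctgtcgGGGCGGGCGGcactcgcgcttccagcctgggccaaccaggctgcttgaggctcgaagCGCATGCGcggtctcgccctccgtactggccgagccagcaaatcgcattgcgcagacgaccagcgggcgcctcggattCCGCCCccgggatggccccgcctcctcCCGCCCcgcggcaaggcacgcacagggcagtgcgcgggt
WDR12, chr2:202911674-202911923, minus strand: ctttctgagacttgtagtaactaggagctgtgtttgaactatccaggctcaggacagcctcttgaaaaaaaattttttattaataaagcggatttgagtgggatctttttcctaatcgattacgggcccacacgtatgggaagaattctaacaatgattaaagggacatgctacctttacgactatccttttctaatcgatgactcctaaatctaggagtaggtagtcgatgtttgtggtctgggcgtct
The motifs were chosen after these sequences had been seen and were searched on both strands. The E-box bound by MYC was searched as CACGTG, the ETS site as CCGGAAG and the GC box as GGGCGG. The TATA box was searched as TATAA, the CCAAT box by the letters of its name and the core of the NRF1 site as GCATGCG. Upstream of NPM1 there was a single match, a TATAA beginning 23 bases before the start, a motif found in 18.9% of 35116 RefSeq promoters of the same length. DKC1 held 4 GC-box matches, of which 2 overlap each other, and 42.6% of promoters hold at least 1. DKC1 also held the NRF1 core on both strands, in 2 overlapping matches from 144 bases before the start, and 3.39% of promoters hold at least 1. The other NPM1 start site, not shown, had a single CCAAT, which 32.0% of promoters hold. No motif of the set was found in these 250 bases of NOP2 or WDR12. An E-box of NOP2 began 35 bases after the start, outside the stretch shown; over 300 bases, reaching 50 after the start, 7.26% of promoters hold an E-box. GC content was 67.6% for NPM1, 66.0% for NOP2, 72.0% for DKC1 and 40.4% for WDR12, beside a median of 58% and an interquartile range of 46.4 to 68% over all promoters. No motif was shared by the 4 genes.

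Values are given as deposited, a scale on which low values climb in equal steps apart from a small constant offset. Taking each step as 1 read gave the reads behind each value. The 9253 names held 42827 reads in the glucose-free and 1442570 in the glutamine-free library. Above 0 in the glucose-free library stood 393 names, or 4.25%, against 9211 in the glutamine-free library. Although it held far fewer reads, the names above 0 in the glucose-free library had a median of 81 reads, against 26 in the other. Values are not divided by transcript length, so a higher value of 1 gene than of another is not a higher level of its RNA.

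NPM1 was carried by several rows in both libraries, and the rows that held its reads were in different proportions. The name summed to 397 (314 reads) in the glucose-free and 720 (910 reads) in the glutamine-free library. Of its 16 rows 10 carried a value, of which 3 stood above 0 in the glucose-free library and all 10 in the other. Numbering these 10 in table order, the 4th had a value of 272 without glucose and 132 without glutamine. On the deposited scale the 10th went the opposite way, at 97.4 and 320. With each library rescaled to the same total both rows were higher without glucose, the 4th at a log2 ratio of -5.43 and the 10th at -2.68. The 9th stood at 27.8 and 0.772, the latter a single read. The 4th row was thus the higher of the pair in the glucose-free library and the 10th in the glutamine-free library.

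The other 7 NPM1 rows were listed at 0 in the glucose-free library. In the glutamine-free library they ranged from 1.56 (2 reads) in the 5th row to 112 (142 reads) in the 1st, and the 8th stood at 60.1 (76 reads). The 4th row took 68.5% of NPM1 reads in the glucose-free library (95% exact interval 63.0 to 73.6%) and 18.4% (15.9 to 21.0%) in the other. For the 10th row the shares were 24.5% (19.9 to 29.7%) and 44.4% (41.1 to 47.7%). The ratio of the 4th to the 10th row, which no scaling of a library alters, was 2.79 (2.14 to 3.67) in the glucose-free and 0.413 (0.343 to 0.496) in the glutamine-free library. These rows were chosen after their values were seen. The intervals cover counting error only, with each read taken as independent, and leave out variation between cultures. Copies of a molecule cannot be told apart without molecular identifiers, so the intervals may be too narrow. The row make-up of NPM1 is given as a description of these 2 libraries and was not tested.

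The reads of NOP2 lay in wholly different rows in the 2 libraries. The name summed to 104 (82 reads) in the glucose-free and 60.1 (76 reads) in the glutamine-free library. Of its 4 rows with a value, the 2nd alone carried all 82 reads of the glucose-free library and was listed at 0 in the other. The 3 remaining rows stood at 16.6, 41.9 and 1.56 in the glutamine-free library (21, 53 and 2 reads) and at 0 in the glucose-free library. No row of NOP2 was above 0 in both libraries, so the sums under this name compare different rows. Whether these rows stand for different transcripts cannot be told, as they have no identifiers or coordinates.

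WDR12 showed the same split on fewer reads. It summed to 16.5 (13 reads) and 15.8 (20 reads). Its 1st row held all 13 reads of the glucose-free library and was at 0 in the other. Its 2nd, 3rd and 4th rows stood at 1.56, 8.68 and 5.52 in the glutamine-free library, on 2, 11 and 7 reads, and at 0 in the glucose-free library. The near-equal sums therefore do not describe a single row at an equal value. Among the 351 names above 0 in both libraries, 38 (10.8%) had no row above 0 in both, NOP2 and WDR12 among them.

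DKC1 had 1 row in common. It summed to 26.6 (21 reads) in the glucose-free and 79.1 (100 reads) in the glutamine-free library. Of its 15 rows only 3 carried a value. The 1st of these stood at 26.6 and 23.7 (21 and 30 reads), a log2 ratio of -0.16 as deposited. The 2nd and 3rd stood at 45.9 and 9.47 (58 and 12 reads) in the glutamine-free library and at 0 in the other. The larger DKC1 sum in the glutamine-free library came from these rows, while the common row differed little on the deposited scale. With each library rescaled to the same total, the common row had a log2 ratio of -4.50.

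**Figure D1:**
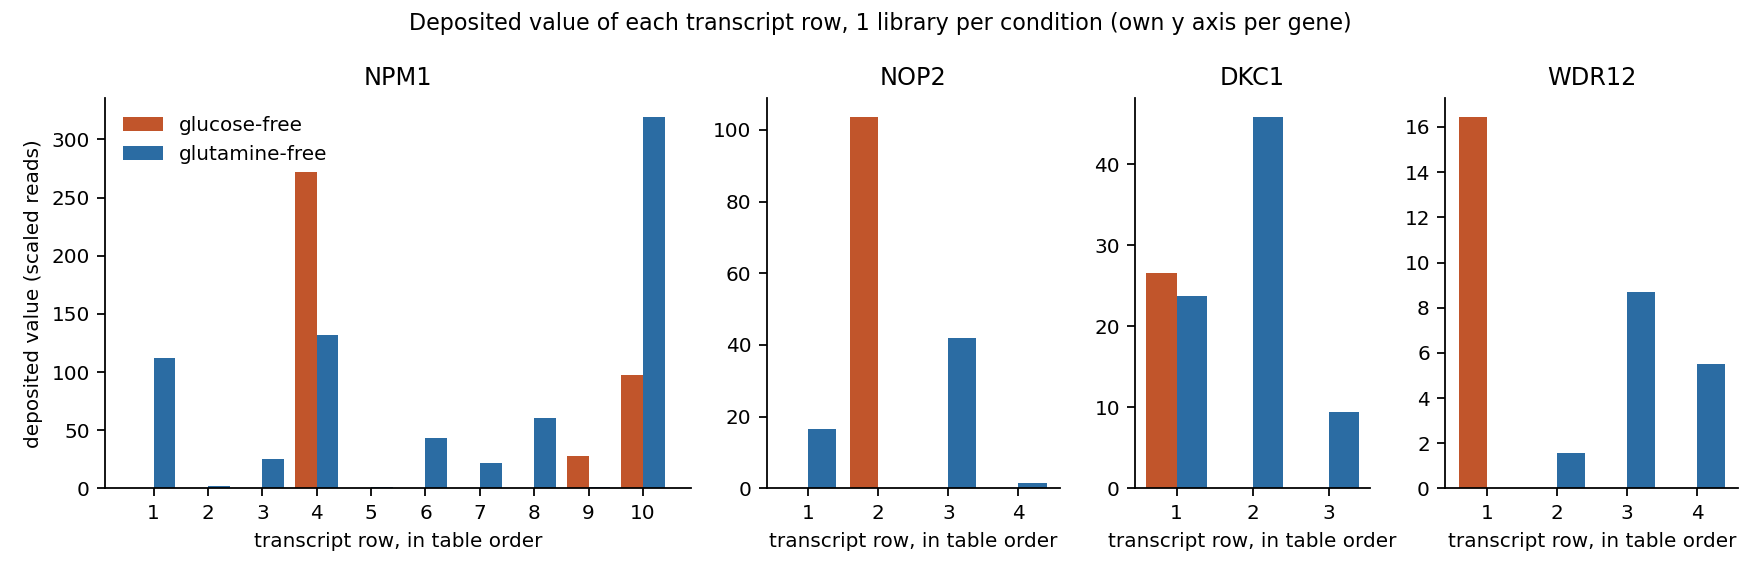
Bars give the deposited value (scaled reads, linear axis from 0, a separate axis for each gene) of each transcript row with a value, in table order, in the glucose-free and the glutamine-free library (1 library each, no error bars). The tallest glucose-free bar and the tallest glutamine-free bar fall on different rows for all 4 genes, and NOP2 and WDR12 have no row with both bars.

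Over the 4 names, 6 rows were above 0 in the glucose-free library, 19 in the glutamine-free library and 4 in both. NPM1 was the member with more than 1 row above 0 in the glucose-free library. In that library 344 of the 393 names above 0 (87.5%) rested on 1 row, and 18 (4.58%) on 3 or more. For each of the 4 members the largest row differed between the libraries, which also held for 169 of the 276 names above 0 in both with at least 2 rows (61.2%). Over the 375 rows above 0 in both, log2 ratios had a median of -0.37 and an interquartile range of -2.16 to 1.44 as deposited. The 3 NPM1 rows, at -1.04, -4.02 and 1.70, reached beyond both ends of that range.

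As sums, the members did not share a direction on the deposited scale. The log2 ratio of value + 1, glutamine-free minus glucose-free, was 0.86 for NPM1 (95% counting interval 0.67 to 1.04), -0.78 for NOP2 (-1.23 to -0.33), 1.54 for DKC1 (0.86 to 2.22) and -0.06 for WDR12 (-1.07 to 0.95). DKC1 was thus the member at least 2-fold higher in the glutamine-free library, beside 97.4% of all names, most of which were at 0 in the other library. With ratios centred on the names above 0 in both it was 0.93, and with the highest row of each library 0.77, both under 2-fold. Under the same settings NOP2 was -1.38 and -1.29, more than 2-fold higher in the glucose-free library. As deposited no member was at least 2-fold higher in that library, beside 1.42% of all names. Among the 351 names above 0 in both, 42.2% and 25.4% were at least 2-fold apart in these directions, and their median was 0.61. Rescaling each library to a total of 1000000 moved the whole scale by 4.40 on the log2 axis. The members then stood at -3.54, -5.16, -2.81 and -4.36 in the same order, near the median of -3.77 for names above 0 in both. All 4 were then at least 2-fold higher in the glucose-free library, as were 86.9% of the names above 0 in both (3.75% of all names). No direction is therefore given for any of the 4 names.

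**Figure D2:**
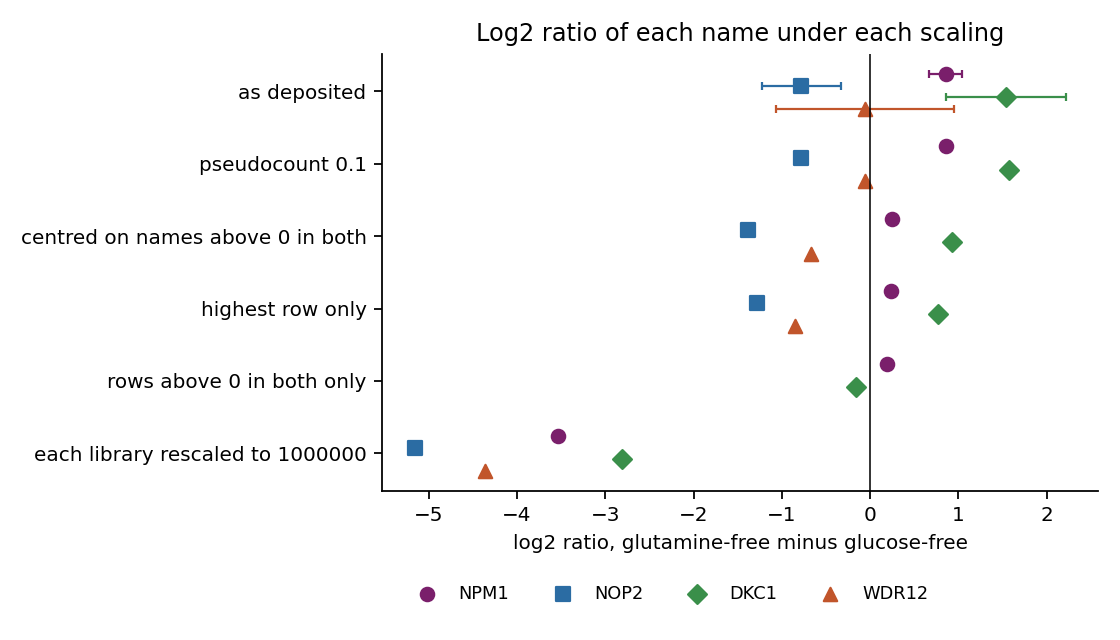
Points give the log2 ratio of each name, glutamine-free minus glucose-free, under each processing; bars on the topmost set are 95% counting intervals. NPM1 and DKC1 lie above 0 as deposited (0.86 and 1.54) and all 4 names lie between -5.16 and -2.81 once each library is rescaled.

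As a share of a library's listed reads, NPM1 took 0.733% (95% exact interval 0.655 to 0.819%) in the glucose-free and 0.0631% (0.0591 to 0.0673%) in the glutamine-free library. NOP2 took 0.191% (0.152 to 0.238%) and 0.00527% (0.00415 to 0.00659%). DKC1 took 0.0490% (0.0304 to 0.0749%) and 0.00693% (0.00564 to 0.00843%), and WDR12 0.0304% (0.0162 to 0.0519%) and 0.00139% (0.000847 to 0.00214%). The share was larger in the glucose-free library 11.6-fold for NPM1, 36.3-fold for NOP2, 7.07-fold for DKC1 and 21.9-fold for WDR12. In that library 393 names divided all reads, against 9211 in the other. The unnamed locus XLOC_220679 held 5566 of the 42827 reads in the glucose-free library. In the glutamine-free library it held 559463 of 1442570, so the shares depend on that locus as well.

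Ratios between members are free of the scaling of each library. The ratio of NOP2 to DKC1 reads was 3.90 (2.39 to 6.64) in the glucose-free and 0.760 (0.556 to 1.03) in the glutamine-free library. The ratio of NPM1 to NOP2 reads was 3.83 (2.99 to 4.94) and 12.0 (9.47 to 15.3). The ratio of NPM1 to DKC1 reads was 15.0 (9.61 to 24.5) and 9.10 (7.40 to 11.3), and that of NPM1 to WDR12 24.2 (13.9 to 45.9) and 45.5 (29.3 to 74.8). The ratio of NOP2 to WDR12 was 6.31 (3.49 to 12.3) and 3.80 (2.30 to 6.57), and that of DKC1 to WDR12 1.62 (0.772 to 3.51) and 5.00 (3.07 to 8.53). All 6 ratios rest on the sums by which the names were chosen and describe these 2 libraries without a test. The reads of NOP2 and WDR12 in them come from rows that the libraries do not share.

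**Figure D3:**
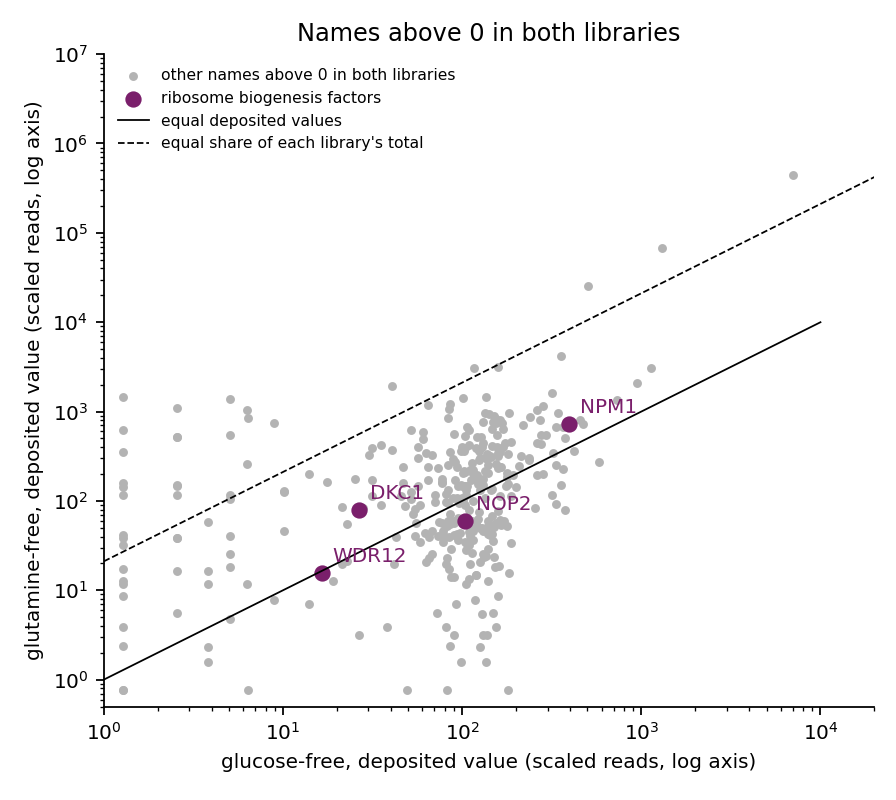
Each point is 1 of the 351 names above 0 in both libraries, with its deposited value (scaled reads, log axes) in the glucose-free library on the horizontal axis and in the glutamine-free library on the vertical axis; lines mark equal values and equal shares of the library totals. NPM1, NOP2, DKC1 and WDR12 lie near the line of equal deposited values and below the line of equal shares.

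Other parts of the ribosome biogenesis machinery, though not every factor, were described over 164 genes in 9 groups by role, the 4 members included. Of these 118 had a row under their name and 97 carried a value. In the glucose-free library 5 of the 97 stood above 0, or 5.15%, beside 4.25% of all names. They were the 4 members and MTREX, the helicase that feeds RNA to the nuclear exosome. The members were chosen for being above 0, so the 5.15% follows in part from the choice. Without them it was 1 of 93 names, or 1.08%, a share that depends on which genes the lists hold. MYBBP1A, a nucleolar protein not on the lists, stood at 158 without glucose and 317 without glutamine. MTREX stood at 72.1 on 57 reads in a single row and was listed at 0 in the glutamine-free library. On the deposited scale 93 of the 97 names had a value + 1 that was 2-fold or more higher without glutamine, beside 97.4% of all names, with a median log2 ratio of 4.58 beside 4.32. After rescaling 92 were, beside 96% of all names. With 92 of the names at 0 without glucose, such a ratio is set by the value without glutamine and the pseudocount.

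The measured partners of the members are given next, by complex or role. In the PeBoW complex PES1 stood at 0 and 29.2 and BOP1 at 0 and 14.2, with WDR12 the 1 of 3 above 0. In the box H/ACA group, 4 measured names, DKC1 was the 1 above 0. NHP2 stood at 56.9, NAF1 at 30.8 and GAR1 at 16.6 in the glutamine-free library and at 0 in the other. Among the nucleolar chaperones and scaffold proteins, 5 measured names, NPM1 was above 0. NCL (nucleolin), which binds ribosomal RNA precursors, stood at 0 and 413, GNL3 at 0 and 237 and NOP53 at 0 and 165. Among the 8 measured names grouped under ribosomal RNA modification NOP2 was the 1 above 0. DIMT1, a small-subunit RNA methyltransferase, stood at 0 and 111 and RRP8 at 0 and 75.9. Because the members were chosen as names above 0, that their partners stood at 0 follows in part from the choice and is not read as a result about the complexes.

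In the groups without a member, counts above 0 without glucose are set beside the 4.25% of all names, and counts of 0 in groups this small are not read as a difference from it. It was 0 of 30 in large-subunit assembly, 0 of 27 in the small-subunit processome and 0 of 10 in RNA polymerase I transcription. It was likewise 0 of 2 among the box C/D proteins, NOP56 at 114 and NOP58 at 55.4 in the glutamine-free library. The names with the most scaled reads in that library, not per length, were DDX21, a nucleolar RNA helicase, at 677, DHX37 at 229 and IMP4 at 204 in the processome. In large-subunit assembly they were PELP1 at 397, NOC2L at 219 and DDX27 at 193, and for RNA polymerase I TAF1C at 238, POLR1A, its largest subunit, at 149 and POLR1C at 64.8. Of the 8 measured names that trim ribosomal RNA, EXOSC2 stood at 327, EXOSC8 at 109 and EXOSC7 at 68.8, and all 3 were at 0 in the glucose-free library. DDX21 with 856 reads and NCL with 522 in the glutamine-free library had none in the other, whereas WDR12, with 20 reads, had 13. Because WDR12 was chosen for being above 0 in both, this contrast follows from the choice and is not read as a result.

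**Figure D4:**
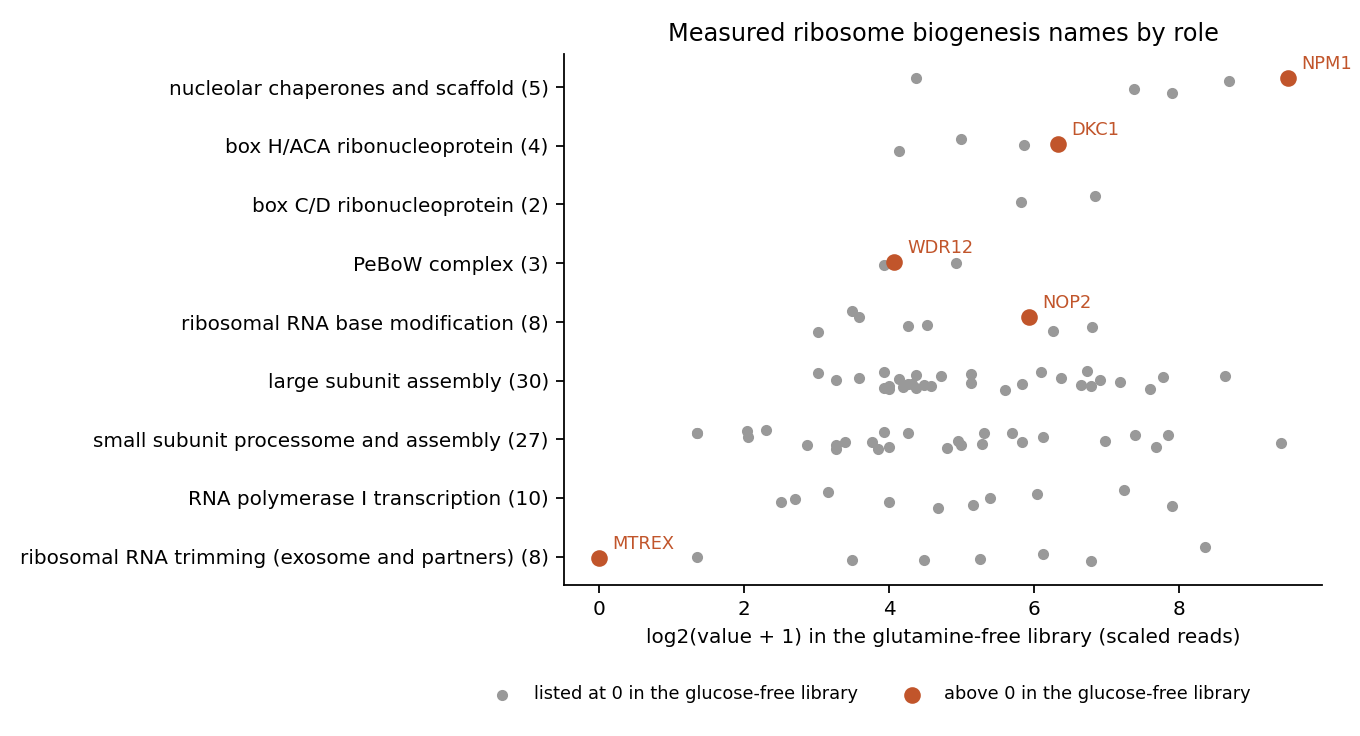
Each point is 1 of 97 measured ribosome biogenesis names, by role (number measured in brackets), at its log2(value + 1) in the glutamine-free library; the large points are the 5 names above 0 in the glucose-free library. NPM1, DKC1, WDR12 and NOP2 each lie alone in their group as the name above 0, and MTREX lies at 0 on the axis.

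Together the 97 names held 487 reads, or 1.14% (1.04 to 1.24%), of the glucose-free and 9200 reads, or 0.638% (0.625 to 0.651%), of the glutamine-free library. Of these, 430 and 1106 were reads of the 4 members, which were chosen for having reads in both libraries. How often names with a like number of reads were seen in the glucose-free library differed along the scale. Of the 242 names within 2-fold of NPM1's value in the glutamine-free library, 71 (29.3%) were above 0 in the other. It was 112 of 2261 (4.95%) around DKC1, 101 of 2569 (3.93%) around NOP2 and 43 of 3569 (1.20%) around WDR12. Among related names, 15 of 63 cytosolic ribosomal proteins (23.8%), 1 of 27 mitochondrial ribosomal proteins (3.70%) and 4 of 24 small nucleolar RNA host genes (16.7%) were above 0 in the glucose-free library. Beside them stand 5 of 97 biogenesis names, or 1 of 93 without the 4 members, which were chosen for being above 0. The shares were not tested, since there is 1 library per condition.

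The names nearest to each member were found by distance in log2(value + 1) over the 2 libraries, which are scaled reads and not levels per length. Nearest to NPM1 were the long non-coding RNAs OIP5-AS1 at 368 and 672 (distance 0.15) and NORAD at 455 and 797 (0.25). Nearest to NOP2 were RAPGEFL1 at 114 and 60.1 (0.13) and FGD5-AS1 at 94.8 and 64.0 (0.16). Nearest to DKC1 were SLC1A4, a neutral amino acid transporter, at 27.8 and 83.8 (0.11) and LRWD1 at 21.5 and 84.6 (0.31). Nearest to WDR12 were CHRNA7 at 19.0 and 12.6 (0.36) and TRIM3 at 21.5 and 19.7 (0.48). Of these 8 names CHRNA7 was the 1 that, like WDR12 and NOP2, had no row above 0 in both libraries.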

How the data were processed

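RNA of 2 samples of 95D cells was analysed, 1 library per condition, paired-end after ribosomal RNA depletion, per the labels' protocols. The submitters' processing notes name HISAT2 2.0.5, StringTie and hg38; counting, annotation and scaling are not stated in the sources used here. The deposited values, per transcript row, climbed in steps of 1.26 and 0.791 with fitted offsets of 0.022 and -0.018, whose origin is unknown. With the offset subtracted and divided by the step they were whole reads to within 0.1 of a read in 100% of values of at most 1000 reads (472 and 18536 values). Rows without a number were left out, and values under 1e-09 were set to 0. The whole-series table held identical values and was not used. Values were summed per name. Ratios are log2(value + 1), which understates differences of low names. Shares have exact binomial intervals (scipy 1.17.1). The members and lists were chosen with earlier results of these data known. Genes named are the members, list names above 0 in the glucose-free library, 2 nearest names per member and the markers. Up to 3 names per list with the highest glutamine-free value are also named. GAR1, NOP53, MYBBP1A and the locus XLOC_220679 were added after their values were seen. Calculations were tested on simulated data. Alternatives were the pseudocount, rescaling, centring, highest rows, minimum values and fold thresholds. No sequences of proteins or transcripts were used here.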

Additional observations from a re-analysis of the deposited data

How the results depend on the processing

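With 1 library per condition no replicate could be left out. No paired analysis was possible because each group holds 1 sample and no test was run. Rescaling each library to 1000000 reversed NPM1 to -3.54 and DKC1 to -2.81 and moved NOP2 to -5.16 and WDR12 to -4.36 (log2 ratios). Centred on the names above 0 in both, NPM1 was 0.25, NOP2 -1.38, WDR12 -0.67 and DKC1 0.93. With the highest row of each library, NPM1 was 0.23, NOP2 -1.29, WDR12 -0.85 and DKC1 0.77. Under both settings DKC1 fell under 2-fold, and NOP2 passed 2-fold in the direction of the glucose-free library. With rows above 0 in both libraries alone, a setting chosen after seeing the data, NPM1 was 0.19 and DKC1 reversed to -0.16, and NOP2 and WDR12 had no such row. A pseudocount of 0.1 or a minimum of 5 in both libraries moved no member by more than its counting interval. The number of list names above 0 in the glucose-free library was 5 under each of the 3 stricter limits, and those at least 2-fold higher in the glutamine-free library numbered 86 to 94 under the 5 alternatives, beside 93. Over all names that number was 8881 after rescaling and 8391 at 4-fold, beside 9008. Depth limits WDR12 most, with 13 and 20 reads. Reads outside the listed rows are unknown.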
